A study of Mus musculus with 2 samples.

Results

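The homeobox genes Six2, Six3, Six4, Six5 and Six6 and the cofactor genes Eya1, Eya2, Eya3 and Eya4 make up a set of 9, chosen by name among 21938 protein-coding genes of GENCODE vM21 (GRCm38). Every listed ATAC-seq peak whose summit lay in one of these genes or within 50 kb of either end was taken. This gave 26 peaks of 58519 in replicate 1 and 39 of 64984 in replicate 2 (mean 32.5 ± 9.19, SD, n = 2). No peak fell in the windows of more than 1 gene. The cells were LβT2, an immortalized gonadotrope line from mouse, at passage 21. Both samples received pulses of 2 nM gonadotropin-releasing hormone (GnRH) every 2 h, 4 pulses in all, and were harvested 45 min after the last, so the data describe 1 condition without an untreated control. ATAC-seq marks DNA that the transposase Tn5 can reach, and the peaks had been called for each replicate separately.

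The products of Six2 to Six6 belong to the sine oculis family of homeodomain transcription factors, which bind DNA and partner proteins. Eya proteins do not bind DNA by themselves. They enter the nucleus with these factors as coactivators and also act as phosphatases, while Dach proteins and the Groucho-type Tle corepressors join the same complexes. Six3 and Six6 are known from the development of forebrain, eye and pituitary, and Six2 from nephron progenitors. Six4 and Six5 are more widely expressed relatives, and Six5 lies next to the myotonic dystrophy kinase gene Dmpk. Eya1 is known from kidney, ear and branchial development, Eya2 and Eya4 from muscle and inner ear, and Eya3 from the pars tuberalis of the pituitary.

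Promoters with a peak in both replicates, in 1 replicate and in none are printed from RefSeq (GRCm38.p6), so that their letters can be compared. Each runs from 250 bp before to 50 bp after an annotated start, with base 251 counted as the first transcribed base. Capitals mark exact matches on either strand to the SP1-type GGGCGG, the NFY-type CCAAT and the Six-type TCAGGTT. Six2 (chr17:85688205-85688504, minus strand) had a promoter peak in both replicates. Six4 (chr12:73113376-73113675, minus strand) and Eya3 (chr4:132638796-132639095, plus strand) had one in replicate 2 alone. Six3 (chr17:85620584-85620883, plus strand) and Six6 (chr12:72939632-72939931, plus strand) had none.
Six2: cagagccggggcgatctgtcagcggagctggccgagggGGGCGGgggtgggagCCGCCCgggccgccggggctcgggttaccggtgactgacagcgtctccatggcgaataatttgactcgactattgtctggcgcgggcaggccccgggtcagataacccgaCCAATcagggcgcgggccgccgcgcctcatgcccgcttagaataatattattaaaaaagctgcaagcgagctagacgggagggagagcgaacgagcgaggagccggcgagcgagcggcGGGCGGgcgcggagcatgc
Six4: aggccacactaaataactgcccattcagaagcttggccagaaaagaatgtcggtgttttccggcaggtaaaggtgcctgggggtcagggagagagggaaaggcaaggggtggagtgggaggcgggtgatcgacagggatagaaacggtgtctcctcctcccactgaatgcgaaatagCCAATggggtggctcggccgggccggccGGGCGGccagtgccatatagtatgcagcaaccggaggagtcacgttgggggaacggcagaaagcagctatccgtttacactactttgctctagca
Eya3: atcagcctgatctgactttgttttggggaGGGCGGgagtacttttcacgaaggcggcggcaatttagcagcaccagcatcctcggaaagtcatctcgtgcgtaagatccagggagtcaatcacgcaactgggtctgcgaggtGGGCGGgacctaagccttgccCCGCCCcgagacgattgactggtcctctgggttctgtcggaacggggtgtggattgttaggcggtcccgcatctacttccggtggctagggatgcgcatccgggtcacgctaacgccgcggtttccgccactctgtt
Six3: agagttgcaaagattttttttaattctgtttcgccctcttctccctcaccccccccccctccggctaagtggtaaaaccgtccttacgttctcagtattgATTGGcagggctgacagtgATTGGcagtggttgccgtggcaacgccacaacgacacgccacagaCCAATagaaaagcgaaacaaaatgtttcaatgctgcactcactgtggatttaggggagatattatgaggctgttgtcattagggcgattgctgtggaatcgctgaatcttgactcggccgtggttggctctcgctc
Six6: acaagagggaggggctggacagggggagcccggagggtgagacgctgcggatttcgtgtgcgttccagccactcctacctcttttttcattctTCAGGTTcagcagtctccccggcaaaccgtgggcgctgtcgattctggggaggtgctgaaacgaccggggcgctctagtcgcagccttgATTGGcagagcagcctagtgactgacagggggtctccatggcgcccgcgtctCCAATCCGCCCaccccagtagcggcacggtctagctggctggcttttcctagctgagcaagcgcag
The table of promoters matched 7 of the 9 genes with 9 entries, and Eya1 and Eya2 had no entry. GGGCGG was present for 6 of these 7 genes, with Six3 the exception, CCAAT for 4 and TCAGGTT for 2, Six4 and Six6. For Six4, the TCAGGTT match was in the entry of its other start, which is not printed. Over all 32851 promoters of the table, the shares with a match were 35.7%, 37.4% and 4.07%. These shares count single entries, whereas the counts before them are of genes with a match in any entry. The 9 entries held between 14 and 37 CpG dinucleotides, against a median of 7 over the table, and those of Six3, Six6 and Eya4, which had no promoter peak, were above it too.

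To describe each promoter, the highest peak with its summit within 1 kb of any annotated transcription start site (TSS) of the gene was used. The number of tags, meaning extended reads stacked at the summit, was solved from the deposited fold and p-value. The background was 3.05 tags in replicate 1 and 3.54 in replicate 2, and the lowest listed peak held 10 and 11 tags. A promoter peak was listed for 2 genes in replicate 1, Six2 and Eya1, and for 6 genes in replicate 2, these and Six4, Six5, Eya2 and Eya3. The mean was 4.00 ± 2.83 genes (SD, n = 2). Among all protein-coding genes, 32.3% had a promoter peak in replicate 1, 44.4% in replicate 2 and 30.8% in both. With 2 of 9 genes in replicate 1, 6 of 9 in replicate 2 and 2 of 9 in both, the genes lay below the background in replicate 1 and above it in replicate 2, and a set of 9 does not show a difference from it. With −log10 q of at least 10, none of the 9 had a promoter peak in replicate 1 and 2 did in replicate 2, again Six2 and Eya1. At this threshold, 11.1% of all protein-coding genes had a promoter peak in replicate 1 and 26.7% in replicate 2.

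**Figure D1:**
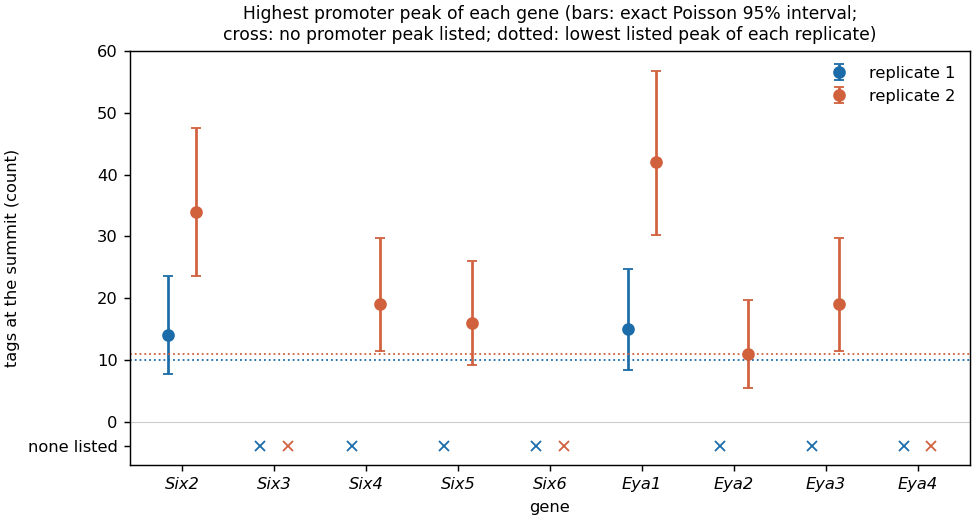
Tags at the summit of the highest promoter peak of each gene (count, y axis) in replicate 1 (blue) and replicate 2 (orange), with exact Poisson 95% intervals, and crosses on the line "none listed" where no promoter peak was listed. Eya1 with 42 tags and Six2 with 34 were the highest in replicate 2, and in replicate 1 only these genes had a value, 15 and 14 tags. For Six2 the values belong to different peaks, with summits at 85687676 in replicate 1 and 85688314 in replicate 2.

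Eya1, the coactivator gene known from kidney and ear development, had the highest promoter peak in each replicate, with tag intervals overlapping those of Six2. It occupies bases 14168954 to 14310235 of chromosome 1 (minus strand) and has 9 annotated starts. The upstream starts, from 14309836 to 14310235, were covered by a peak from 14309436 to 14310766 in replicate 2, which at 1331 bp was the widest at any of the 9 genes. Replicate 1 had a peak of 309 bp there, from 14309639 to 14309947. The summits lay 46 bp apart and held 15 tags (95% interval 8.40 to 24.7) in replicate 1 and 42 tags (30.3 to 56.8) in replicate 2. The matching −log10 q was 4.13 and 27.2. The second cluster of starts, from 14304570 to 14304628, had its own peak in both replicates, with 15 and 25 tags and a −log10 q of 4.13 and 10.8, a mean of 7.49 ± 4.75 (SD, n = 2). Another promoter peak with 13 tags was listed at this cluster in replicate 1 alone, −627 bp from the nearest TSS. Both overlapping promoter peaks of Eya1 were thus found in each library, with the higher tag number in replicate 2. The peak at the upstream starts lay in DNA of 72.6% GC in replicate 1 and 71.6% in replicate 2 (201 bp at the summit).

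Six2, a factor that keeps nephron progenitors undifferentiated, also had promoter peaks in both replicates. Its gene spans 85684277 to 85688274 of chromosome 17 (minus strand). The peak at the start spanned 85688375 to 85688551 in replicate 1 and 85688203 to 85688510 in replicate 2. Its summit lay at −129 bp with 13 tags in replicate 1 and at −40 bp with 34 tags in replicate 2. These distances were counted from the start at 85688274. The summits are bases 102 and 191 of the printed promoter, whose base 251 is the other annotated start, at 85688254. The values of −log10 q were 2.88 and 19.0, a mean of 10.9 ± 11.4 (SD, n = 2). A second peak 578 bp downstream of the nearest TSS in replicate 1 and 696 bp in replicate 2 was the more even of the Six2 peaks, with 14 and 17 tags and a −log10 q of 4.16 ± 0.95 (SD, n = 2). All these summits were single-copy, meaning that the 50 bp centred on them occurred at 1 place in the genome.

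The 61 bp around the summit with the higher −log10 q (plus strand) are printed for the upstream Eya1 starts and for both Six2 peaks, since these promoter peaks overlapped between the libraries. The stretch at the Six2 start lies inside the peak of replicate 2 and outside that of replicate 1, which begins further upstream of the gene. Capitals mark any of the motifs searched, and of these stretches only that at the Six2 start holds one, a CCAAT match.
Eya1 upstream starts, chr1:14309875-14309935: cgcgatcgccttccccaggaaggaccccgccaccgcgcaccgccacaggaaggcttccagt
Six2 start, chr17:85688284-85688344: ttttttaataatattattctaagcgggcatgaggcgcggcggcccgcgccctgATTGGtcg
Six2 downstream, chr17:85687528-85687588: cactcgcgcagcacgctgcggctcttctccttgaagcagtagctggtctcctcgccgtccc
The Six2 summits over the start had, within 100 bp, a match to GGGCGG, to CCAAT and also to the GATA-type letters AGATAA in both replicates.

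The other 4 genes with a promoter peak had it only in replicate 2. Six4 had 19 tags (95% interval 11.4 to 29.7) at a summit −3 bp from its start, with a −log10 q of 6.21, and Eya3 had the same tags and −log10 q at −2 bp. These summits are bases 217 and 249 of the printed promoters. For Six4, the distance was counted from the start at 73113456, whereas base 251 of its printed promoter is the start at 73113425. Scaled to the background of replicate 1, 19 tags correspond to 16.4, above the 10 tags of the lowest peak listed there. This scaling takes no account of counting error in either library. Six5, a homeobox factor of muscle and other tissues, had 16 tags at −712 bp, from 19093649 to 19093975 on chromosome 7. Eya2 had 11 tags, the lowest number listed in replicate 2, at −781 bp from an internal start that lies at 165655298 on chromosome 2, and no peak within 1 kb of its most upstream start. Scaled in the same way this is 9.49 tags, under the lowest peak of replicate 1. Ordered by tags in replicate 2, the promoters were Eya1, Six2, Six4 and Eya3 level with each other, Six5 and Eya2. The intervals of neighbours in this order overlapped, while that of Eya1 lay above those of Six4, Eya3, Six5 and Eya2.

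Set against all protein-coding promoters with a peak, the members ranged widely in height. The highest promoter peak of Eya1 exceeded 21.9% of these promoters in replicate 1 and 78.9% in replicate 2, and that of Six2 exceeded 15.1% and 66.8%. For Six2 these were different peaks, the downstream one in replicate 1 and that at the start in replicate 2. Six4 and Eya3 exceeded 21.7% in replicate 2, Six5 10.3% and Eya2 0%. The median −log10 q over all such promoters was 6.97 in replicate 1 and 12.5 in replicate 2. As a check of the cells, gonadotrope markers had a promoter peak for 3 of 5 genes in replicate 1 and 4 of 5 in replicate 2. Over all protein-coding genes, the shares were 32.3% and 44.4%. Fshb had none in either replicate, and Nr5a1 had one in replicate 2 alone, with a −log10 q of 4.84. None of 5 genes of other pituitary lineages (Tshb, Prl, Gh, Pou1f1 and Pomc) had a promoter peak in either replicate.

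Six3, Six6 and Eya4 had no promoter peak in either library. For Six6, which lies on chromosome 12 from 72939892 to 72944899, no peak was listed in the whole window of 105 kb in either replicate, and the nearest lay 86.0 kb from its TSS in replicate 1 and 85.8 kb in replicate 2. Six3 had a single peak in its window, in replicate 2. It held 15 tags with a −log10 q of 3.57 and had its summit in an annotated exon at 85629295, near the 3′ end of the gene at 85629302 on chromosome 17. Eya4, the longest of the genes at 248 kb, on chromosome 10 from 23102963 to 23350786, had no peak in its window of 348 kb in either replicate. The closest peak was 125 kb away from a TSS in replicate 1 and 119 kb in replicate 2. A peak in the window was present for 83.3% of all protein-coding genes in replicate 1 and 90.2% in replicate 2, and for 6 and 7 of the 9 genes. Windows without a peak in both replicates made up 7.49% of all protein-coding genes. Among the 17787 genes whose window was at least as long as that of Six6, 1120 (6.30%) had none in both. Among the 746 genes whose window was at least as long as that of Eya4, 6 (0.80%) had none, Eya4 included. No peak with fewer than 10 tags in replicate 1 or 11 in replicate 2 was listed anywhere, so openness under that limit at Six6 and Eya4 would not appear. Peaks were called with a genome size preset that MACS2 keeps for Drosophila. A smaller genome size gives a higher background, so the limit, the folds and the q values depend on it.

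**Figure D2:**
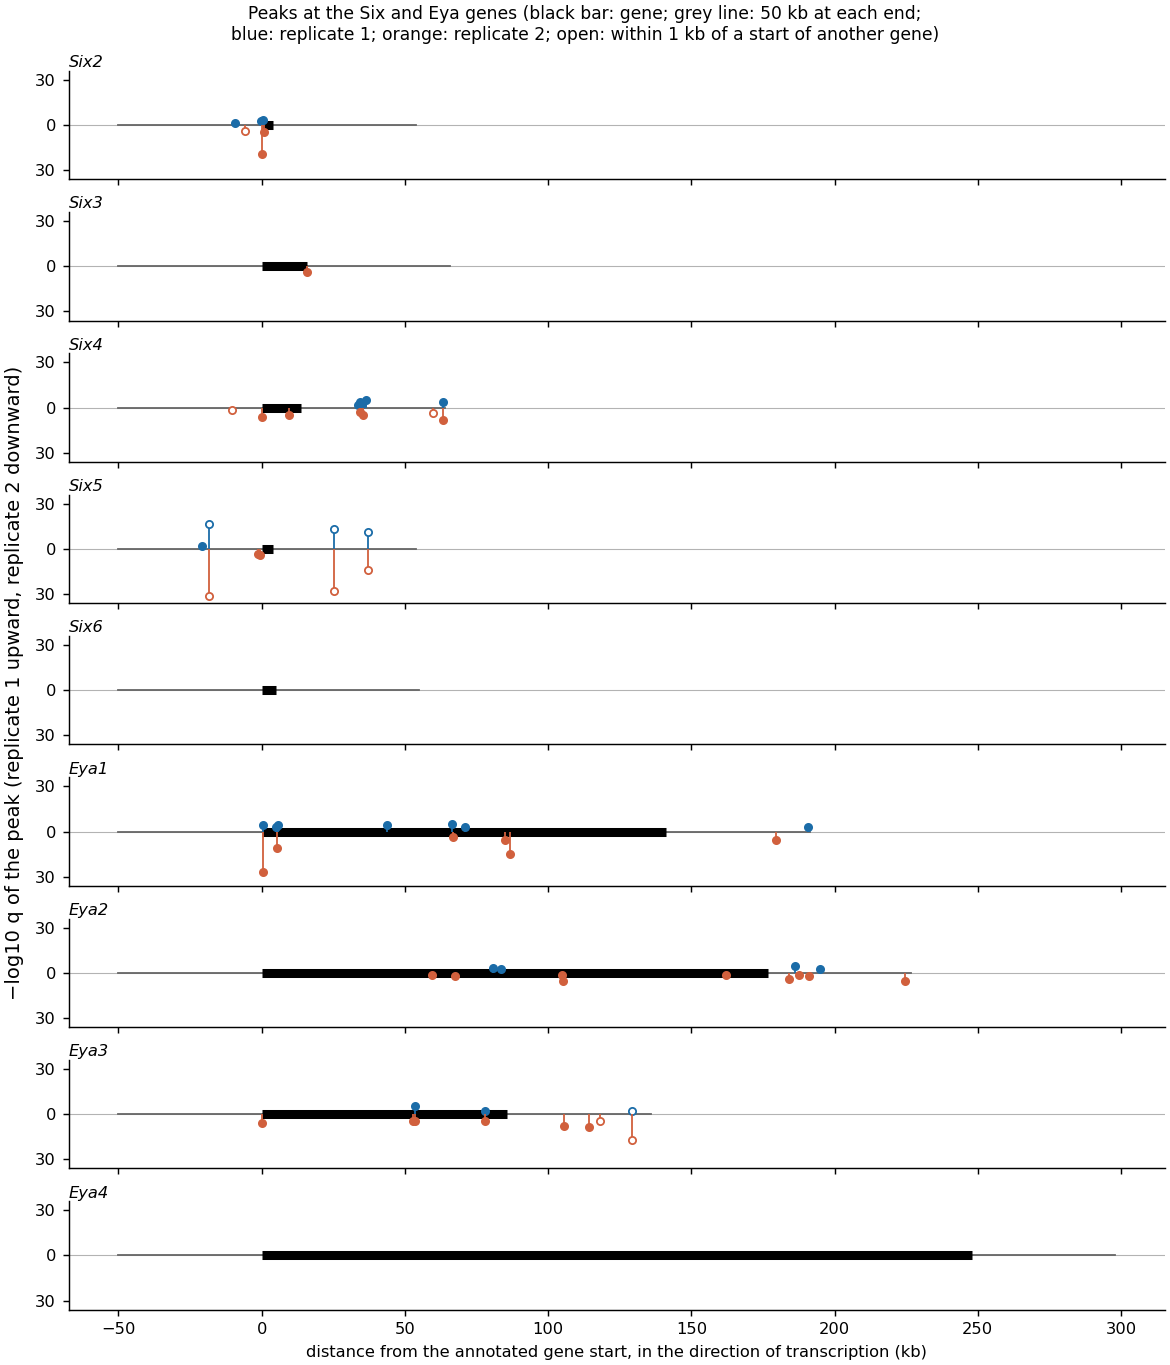
Peaks around each gene by distance from the annotated gene start in the direction of transcription (kb, x axis) and −log10 q (y axis, replicate 1 upward in blue and replicate 2 downward in orange), with the gene as a black bar and open points within 1 kb of a start of another gene. Six6 and Eya4 have no peak, Six3 has 1, and the highest peaks at a member's own start are those of Eya1 (27.2) and Six2 (19.0) in replicate 2.

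By position, the 26 peaks of replicate 1 comprised 5 in promoters, 7 in introns and 14 outside the genes. The 39 peaks of replicate 2 comprised 8 in promoters, 10 in introns, 2 in exons and 19 outside. The promoter share was 19.2% and 20.5%, on average 19.9% ± 0.91 (SD, n = 2). Of the peaks outside the genes, 4 in replicate 1 and 8 in replicate 2 lay within 1 kb of a start of another gene. The genes also differed in density. Six4 had 4.39 and 6.15 peaks per 100 kb of window in replicates 1 and 2, Six5 3.85 and 4.81, Eya1 2.90 and 2.49, Eya3 1.61 and 4.31, Six2 2.88 in both, and Eya2 1.45 and 3.25. Six3 had 0 and 0.86, and Six6 and Eya4 had 0 in both. The medians over all protein-coding genes were 1.73 and 2.31, and 86.4% and 90.5% of these genes had a lower density than Six4. Of the Six4 peaks, 4 of 5 in replicate 1 and 2 of 7 in replicate 2 were multi-copy.

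**Figure D3:**
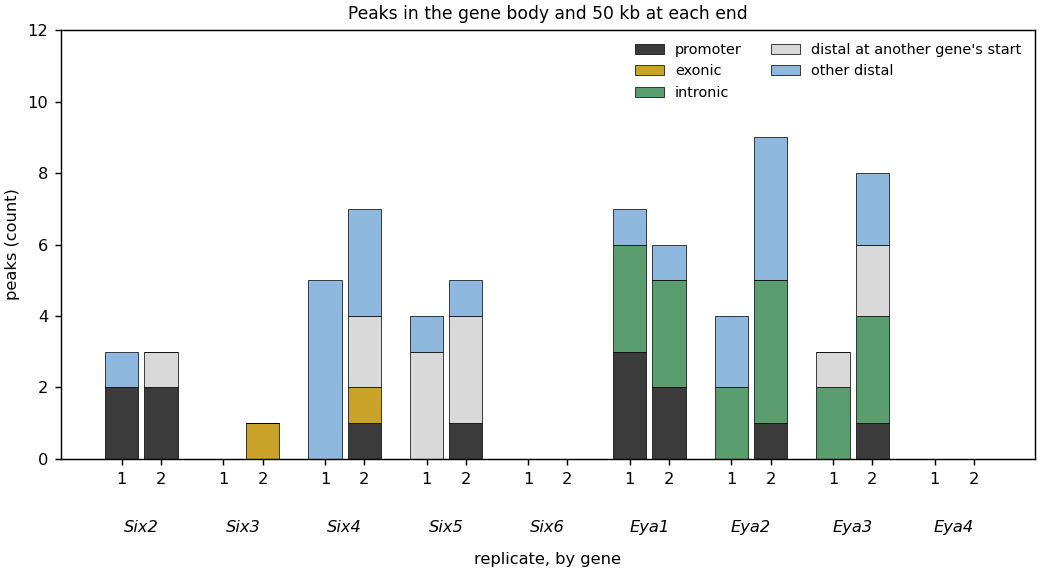
Number of peaks (count, y axis) in each gene body and 50 kb at each end, by replicate (x axis) and position (colours). Introns held peaks of Eya1, Eya2 and Eya3, and most peaks at Six4 and Six5 lay outside the gene.

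Introns held peaks in the 3 genes Eya1, Eya2 and Eya3 in both replicates. In Eya1, 1 intronic peak overlapped between the replicates, with 16 tags in replicate 1 and 15 in replicate 2 and a −log10 q of 4.19 ± 0.87 (SD, n = 2), and its summits were 66.6 and 66.7 kb into the gene. The highest intronic peak of all, from 14223436 to 14224064, was listed in replicate 2 alone. It held 30 tags with a −log10 q of 15.2, which scales to 25.9 tags in replicate 1, and a second peak of 18 tags had its summit at 14225458. Their summits lay 7873 and 6034 bp downstream of the Eya1 start at 14231492. The peak of 30 tags was singled out after its values were seen. The 61 bp at the summits of the overlapping intronic peak (replicate 1) and of the highest one are printed as the only single-copy intronic peak found in both replicates and the highest intronic peak in either. Other single-copy intronic peaks of Eya1 and Eya2 were listed in 1 replicate.
Eya1 intron, both replicates, chr1:14243593-14243653: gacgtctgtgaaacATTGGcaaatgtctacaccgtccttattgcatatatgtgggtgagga
Eya1 intron, replicate 2 alone, chr1:14223589-14223649: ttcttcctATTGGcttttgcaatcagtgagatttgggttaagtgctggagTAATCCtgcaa
Around the overlapping peak, CCAAT and AGATAA were matched within 100 bp in both replicates, and the LHX-type TAATTA and the PITX-type TAATCC in replicate 1. TAATTA was found at 2.44% of all summits of replicate 1.

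Eya3 had 2 intronic peaks that overlapped between the replicates, both in repeated sequence. The summits near 53.4 kb into the gene held 17 tags in each replicate, and their 50 bp occurred at 23 places in the genome for replicate 1 and 46 for replicate 2. Those near 78 kb held 11 and 17 tags and occurred at 66 and 52 places. Reads from such sequence cannot be placed with certainty, so these values may come from any of the copies. For Eya2, a coactivator known from muscle, none of its 4 peaks in replicate 1 overlapped any of its 9 in replicate 2. Over the whole lists, 59.1% of peaks in replicate 1 and 51.6% in replicate 2 overlapped the other list. The single Six3 peak had no overlap either. Of the 4, 3 lay in multi-copy sequence, whereas the 9 of replicate 2 were single-copy, with 11 to 18 tags.

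Outside the genes, the strongest peaks belonged to neighbours. Around Six5, 3 peaks were present in both replicates, all within 1 kb of a start of Dmwd or Fbxo46. They held 30 and 46 tags at 18.5 kb upstream of Six5, 26 and 43 tags at 25.2 kb from its start on the other side, and 24 and 29 tags at 37.1 and 37.0 kb. Each of them exceeded the tags at the promoter of Six5 itself, which had 16 in replicate 2. The farthest Eya3 peak, at the start of Rpa2, a subunit of a single-stranded DNA binding complex, held 11 and 32 tags. Leaving out such neighbours, the highest distal pair was at Six4, with its summits 63.3 and 63.2 kb from the gene start, 14 and 22 tags and a −log10 q of 5.96 ± 3.50 (SD, n = 2). A second group downstream of Six4, with its summits 33.7 to 36.3 kb from the gene start, held 4 peaks in replicate 1 and 2 in replicate 2, all of them multi-copy. Beyond the 3′ end of Eya3, 2 single-copy peaks away from other starts were listed in replicate 2 alone, with 21 and 22 tags.

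The replicates were then compared at these loci. An overlap of 1 bp or more with the other list was found for 14 of 26 peaks (53.8%) in replicate 1 and for 14 of 39 (35.9%) in replicate 2, against 59.1% and 51.6% over the whole lists. The 14 overlapping pairs comprised 4 in promoters, 3 in introns and 7 outside the genes. Tags were compared by an exact binomial test (two-sided) against the ratio of the backgrounds, 1.16, with Benjamini-Hochberg adjustment over all 36210 overlapping pairs. No pair of the 14 differed at an adjusted p of 0.05, whereas 1.22% of all pairs did, and 3 of the 14 had an unadjusted p under 0.05, against 7.78% of all pairs. These were the upstream Eya1 promoter (15 and 42 tags, scaled ratio 2.42, adjusted p = 0.139 by the exact binomial test), the Six2 start (13 and 34 tags, scaled ratio 2.26, adjusted p = 0.313, same exact test) and the peak at Rpa2 (11 and 32 tags, scaled ratio 2.51, adjusted p = 0.256, same exact test). After scaling, replicate 2 was higher in 11 of the 14 pairs and replicate 1 in 3, with a median ratio of 1.33, against 1.06 over all pairs. The test compares 2 libraries and covers counting error only.

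**Figure D4:**
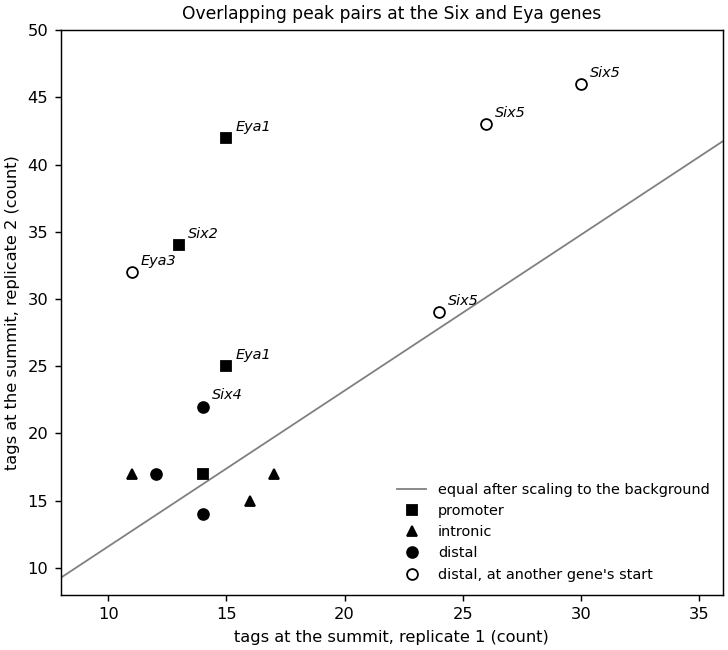
Tags at the summit (count) in replicate 1 (x axis) and replicate 2 (y axis) for the 14 overlapping pairs, by position, with a line where tags are equal after scaling to the background. The Eya1 and Six2 starts and the Rpa2 start lie farthest above the line, with scaled ratios of 2.26 to 2.51.

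Copy number moved with the replicate. A multi-copy summit was found for 11 of 26 peaks in replicate 1 and for 5 of 39 in replicate 2. The part of copy number in the overlap was not tested. Among single-copy summits at these genes, 66.7% in replicate 1 and 29.4% in replicate 2 overlapped. The same share over the whole lists is not given here, so these values have no background. Single-copy summits were 57.7% and 87.2% at these genes, compared with 33.1% and 38.9% of all summits with a counted copy number. The median peak held 14 tags in replicate 1 and 17 in replicate 2, close to the 14 and 16 over the lists, and the median width was 230 and 256 bp against 298 and 335.5 bp.

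Base composition was computed for the 300 bp at the most upstream start of each gene. GC content ranged from 38.3% for Eya1 to 66.3% for Six2, with a median of 60.3% over the 9 genes and 55.0% over all protein-coding genes. The ratio of observed to expected CpG was highest for Six2 at 1.08, above 97.02% of protein-coding genes, followed by Eya2 at 0.97. It was lowest for Eya4 at 0.35. The CpG ratio was computed at the most upstream start only, and GC content differed at other starts. For Eya4, the 300 bp at other starts had 64% and 69.3% GC, against 51.3% at the most upstream one. At the upstream Eya1 starts, the 201 bp at the summit had 72.6% GC in replicate 1 and 71.6% in replicate 2. Six6, without any peak, had a ratio of 0.71, near the median of 0.75 among genes with a promoter peak in replicate 1, whereas genes without one had a median of 0.36.

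Matches to the Six-type letters within 100 bp of a summit were few, both in the windows and over the whole lists. TCAGGTTTC was found at none of the summits in either replicate, against 0.19% and 0.26% of all summits. Its first 7 letters, TCAGGTT, which also count within the longer form, were found at 1 of 26 summits in replicate 1 and 3 of 39 in replicate 2 (3.85% and 7.69%, against 4.91% and 4.89% of all summits). GGGCGG was found at 5 and 12 summits (19.2% and 30.8%, against 9.85% and 12.1%), and CCAAT at 10 and 14 (38.5% and 35.9%, against 33.97% and 33.0%). TAATCC was found at 4 summits in each replicate (15.4% and 10.3%, against 5.33% and 5.82%), and AGATAA at 5 and 3 (19.2% and 7.69%, against 9.46% and 9.62%), above the whole list in replicate 1 and below it in replicate 2. The AP1-type TGANTCA was found at 2 in each (7.69% and 5.13%, against 4.70% and 4.90%) and TAATTA at 2 and 1 (7.69% and 2.56%, against 2.44% and 2.30%). The SF1-type CAAGGTCA was found at 0 and 1 (0% and 2.56%, against 1.39% and 2.06%) and a CTCF consensus at 0 and 2 (0% and 5.13%, against 0.50% and 0.74%). The CRE-type TGACGTCA and the EGR-type GCGTGGGCG were found at none, against 0.53% and 0.65%, and 0.12% and 0.17%, of all summits. A match says only that these letters occur there, and with so few summits the shares rest on single peaks.

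Finally, 13 further genes that act with these factors, among them Pax and Dach genes and corepressors, were examined. A promoter peak was listed for 4 in replicate 1 and 6 in replicate 2, and for 4 in both, next to the background of 32.3%, 44.4% and 30.8%. The corepressor genes Tle1 and Tle4 had the highest, with a −log10 q of 42.1 ± 31.7 and 38.1 ± 24.6 (SD, n = 2). Ski, a corepressor related to Dach, followed at 14.1 ± 5.53 and Tle3 at 4.50 ± 1.43 (SD, n = 2). Tle2 and Mcrs1 had a peak in replicate 2 alone, with a −log10 q of 5.51 and 6.93. Dach1, Dach2, Sobp, Pax2, Pax6, Tle6 and Skil had none in either replicate.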

How the data were processed

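LβT2 cells under 1 condition gave 2 ATAC-seq samples. Per the methods of the study, bowtie2 placed the reads on GRCm38, duplicates were removed, and MACS2 called peaks (shift 100, extension 200, genome size preset "-g dm"). In MACS2 that preset stands for Drosophila, although the reads are from mouse, and background tags, fold, q and the lowest listed tags depend on it. Its effect was not tested. Software versions and an input control are not given in the sources used here. The deposited lists hold positions, a score (10 times −log10 q without its decimals in 100% of peaks), a fold enrichment, which is a ratio over background, and p and q as −log10. Deposited values were not altered.

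Summit tags and the background tags of each list were derived from fold and p. The p-values recomputed from them differed from those deposited by at most 0.000152 on the −log10 scale. Summits were assigned to genes of GENCODE vM21. Classes were taken in the order promoter (1 kb around any TSS of the gene), exon, intron and distal. Copy number was counted on both strands of the assembled chromosomes and the mitochondrial genome. Overlapping pairs, in which a peak may occur more than once, were tested with the exact binomial test. Tags have exact Poisson 95% intervals, which cover counting error only. With 1 group, no conditions were compared, and whether the replicates came from separate cultures is not stated in the labels. Scripts ran under Python 3.11.15 with scipy 1.17.1, numba 0.67.0, numpy 2.4.6, pandas 2.3.3 and matplotlib 3.10.9, and were tested on simulated data.

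The members, the 13 network genes, the markers and the 12 motifs were chosen with earlier results of these data known. Named were the 9 members, their highest promoter peak and their highest overlapping other peak. Neighbouring genes and peaks outside this rule were named after their values were seen. The sequence at 1 summit is not reported here. Alternatives concerned the threshold on q, promoter and window size, overlap, copy number, scaling, and leaving out a replicate.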

Additional observations from a re-analysis of the deposited data

How the results depend on the processing

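Restricted to a −log10 q of 10 or more, genes with a promoter peak fell from a mean of 4 to 1 (over all protein-coding genes, 2435 of 7084 such genes were left in replicate 1 and 5867 of 9739 in replicate 2). Window peaks fell from a mean of 32.5 to 5.50, with 3 left in replicate 1 and 8 in replicate 2. Over the whole lists, 11.0% and 19.9% of peaks reached this threshold. Of those left, 0 and 4 lay at a member's own promoter or body. The promoter share moved from 19.9% to 18.8% (0 in replicate 1 and 37.5% in replicate 2). The overlapping share rose from 44.9% to 93.8% (100% of 3 peaks and 87.5% of 8). The overlapping share of the whole lists at this threshold is not given here, so the rise cannot be set against a background. With windows of 100 kb at each end, 49.5 peaks were found. With overlap of at least 50% of both peaks, the overlapping share was 28.8%. The promoter share was 21.2% with 2 kb around a TSS and 28.4% with single-copy summits. Leaving out either replicate gave 2 to 6 genes with a promoter peak. At an unadjusted p of 0.05, 3 of 14 pairs differed in tags instead of 0, against 7.78% of all pairs. The causes of these changes were not tested. The other 17 of 27 alternative values stayed within 1.5 times the count, or within 1 SD of the share. The pair test has no value with a replicate left out, and no paired analysis was possible because there is 1 group. Weak peaks rest on few tags, down to 10 and 11.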
